A study of Mus musculus with 12 samples.

Results

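The genes described here are 9 heat shock chaperones and co-chaperones: Hsph1, Hsp90aa1, Hspa1a, Hspa1b, Dnaja1, Dnajb1, Stip1, Bag3 and Ahsa2. They were taken by symbol from the deposited table of the 2 injected groups, HFD PCN and HFD Vehicle, and all 9 were found among its 30453 genes. The 9 were chosen by their counts in this table, so their levels in the 6 injected libraries, and the comparison between these, are a description. Their levels in the Chow and HFD groups were not analysed here.

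RNA of mouse tissue had been sequenced in 12 libraries of 4 groups with 3 libraries each. All mice were C57BL/6N, an inbred laboratory strain, fed regular chow or a high-fat diet (HFD) for 18 weeks from an age of 6 weeks. The HFD PCN and HFD Vehicle mice shared the high-fat diet and a course of intraperitoneal injections, once a day for 4 days. HFD PCN mice received pregnenolone 16alpha-carbonitrile (PCN), a steroid that activates the pregnane X receptor of mice, at 50 mg/kg, and HFD Vehicle mice received 30% DMSO in corn oil. For the Chow and HFD groups no injection is given in the labels, so injection as such was not separated from the vehicle. The series title names gonadal white adipose tissue and the source label names duodenum. The adipocyte hormone gene Adipoq lay between 359 and 2094 CPM, a unit that sets each count relative to its library's sum, in the 12 libraries and all 8 adipocyte markers were at 1 CPM or more, whereas Epcam, a surface protein of intestinal epithelium, was at most 0.291 CPM. The intestinal list as a whole had 1 or 2 markers at 1 CPM or more in each library and a summed level of 9.23 to 40.7 CPM. Total counts per library ran from 11090117 in HFD Vehicle 50 to 27408092 in HFD 30. The labels number the libraries without saying that each came from its own animal. The p-values set the difference between groups against the spread between these libraries, which may be technical.

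The heat shock response is the fast rise of chaperone genes that heat, oxidants and other causes of protein damage set off through the transcription factor HSF1. Its products hold unfolded proteins, refold them or hand them on: HSP70 and HSP110 proteins work with J-domain partners (HSP40), HSP90 works with co-chaperones that load clients onto it or stimulate its ATPase, and BAG3 links HSP70 to autophagy. In fat tissue the same proteins are present in adipocytes, vessels and immune cells, so their RNA alone does not name a cell type.

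The strongest contrast within these genes lay in Hspa1a and Hspa1b, the inducible HSP70 genes, which are near copies of each other on chromosome 17. Hspa1a (ENSMUSG00000091971) lies at 34969190 to 34972156 and Hspa1b (ENSMUSG00000090877) at 34956436 to 34959238 of GRCm38, both on the minus strand, and their starts are 12918 bases apart. The 250 bases before each start are printed because they show how far the likeness of the pair extends beyond the coding sequence. They are from RefSeq (GRCm38.p6, minus strand), at chr17:34972157-34972406 for Hspa1a and chr17:34959239-34959488 for Hspa1b. Capitals mark the motif GAANNTTC, a pair of inverted units of the heat shock element to which HSF1 binds.
Hspa1a: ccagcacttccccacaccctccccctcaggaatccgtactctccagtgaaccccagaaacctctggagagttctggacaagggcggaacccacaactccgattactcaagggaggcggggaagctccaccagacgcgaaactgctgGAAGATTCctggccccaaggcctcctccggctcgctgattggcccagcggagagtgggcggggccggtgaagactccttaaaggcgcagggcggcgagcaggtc
Hspa1b: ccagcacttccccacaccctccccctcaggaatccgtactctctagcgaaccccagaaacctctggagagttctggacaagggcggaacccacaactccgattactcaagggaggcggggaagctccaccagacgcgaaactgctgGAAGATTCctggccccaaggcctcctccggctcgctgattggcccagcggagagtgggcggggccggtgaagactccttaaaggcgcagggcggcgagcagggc
The printed stretches differed at 3 of 250 bases, C44T, T47C and T249G, with the base of Hspa1a first and positions counted from 1 at the 5′ end. In both, the motif began 104 bases before the start. The motif GAANNTTC was found in 6.69% of 32851 RefSeq promoters of the same 250-base length, its other phase TTCNNGAA in 7.17%, and either in 12.8%, and both motifs read the same on both strands. Of the 8 genes with a promoter in the table, 4 held either motif, namely Hspa1a, Hspa1b, Dnaja1 (GAANNTTC, 124 bases before 1 of its 3 annotated starts) and Hsph1 (TTCNNGAA, 33 or 54 bases before its 2 annotated starts). The matches of Dnaja1 and Hsph1 lay within the longer gene models of the GENCODE annotation. The percentages are per promoter, whereas a gene counted here if any of its annotated starts had a match, and the near copies Hspa1a and Hspa1b counted separately. The 2 measures are thus not alike. A match is a run of letters and not a measured binding site. Hsp90aa1 was not among the promoters.

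In the coding sequence the pair was closer still. The longest open reading frames had 1926 bases in Hspa1a and 1929 in Hspa1b, with 8 aligned bases different, 3 gap bases and 99.6% identity. Of all 100-base windows of Hspa1a, 68.1% were also found unchanged in Hspa1b. How the authors' counting split reads between the copies is therefore uncertain, and Hspa1a is also overlapped by Gm20481 on the other strand over 19.0% of its exon bases, with no strand setting given in the sources used here. Hspa1b held 54.5% to 65.4% of the counts of the pair in the 6 libraries.

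Levels below are scaled CPM, that is, CPM after TMM scaling of the 6 injected libraries. Hspa1a stood at 2.67 in HFD Vehicle 23, 1075 in HFD Vehicle 50 and 631 in HFD Vehicle 55, while HFD PCN 5, 11 and 27 had 16.5, 29.4 and 43.1. For Hspa1b the same libraries gave 5.06, 1480 and 757 with vehicle and 21.1, 41.4 and 70.3 with PCN. So the vehicle group held both the lowest library and the highest 2, with all PCN libraries between them. The lowest values rest on 66 counts of Hspa1a and 125 of Hspa1b in HFD Vehicle 23. In a bulk sample, fewer cells that express a gene and less RNA per cell cannot be told apart.

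Hsph1 (ENSMUSG00000029657, chromosome 5, 149614287 to 149636376, minus strand) encodes HSP110, a relative of HSP70 that releases its nucleotide and helps to dissolve protein aggregates. Its scaled CPM was 59.6, 3926 and 1122 in HFD Vehicle 23, 50 and 55, and 107, 178 and 183 in HFD PCN 5, 11 and 27. In HFD Vehicle 50 it alone took 39.4% of the counts of the 9 genes, against 10.6% in HFD Vehicle 23 and 13.2% to 16.9% in the PCN libraries.

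The J-domain proteins hand substrates to HSP70 and start its ATPase. Dnaja1 (ENSMUSG00000028410, chromosome 4, 40722150 to 40737149, plus strand) had 95.4, 746 and 405 scaled CPM in HFD Vehicle 23, 50 and 55, against 146, 188 and 163 in HFD PCN 5, 11 and 27. Dnajb1 (ENSMUSG00000005483, chromosome 8, 83608193 to 83612653, plus strand), the classic heat-induced HSP40, was at 27.8, 354 and 144 with vehicle and at 42.9, 62.9 and 63.6 with PCN. In both, HFD Vehicle 23 was lowest, the PCN libraries followed and HFD Vehicle 55 and 50 were highest, over a smaller range than in the HSP70 genes. Dnaja1 is uncertain to a small extent, since 10.8% of its exon bases are overlapped by other genes, Smu1 among them.

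Hsp90aa1 (ENSMUSG00000021270, chromosome 12, 110690605 to 110702728, minus strand) encodes the inducible cytosolic HSP90. Its scaled CPM was 234, 1462 and 964 in HFD Vehicle 23, 50 and 55 and 322, 350.4 and 350.7 in HFD PCN 5, 11 and 27, so the PCN libraries were nearly equal while the vehicle libraries were not. Stip1 (ENSMUSG00000024966, chromosome 19, 7020696 to 7040026, minus strand), known as HOP, passes clients from HSP70 to HSP90 and was at 62.4, 290 and 138 with vehicle and 73.1, 80.5 and 96.3 with PCN. The range of Stip1 over the vehicle libraries was the narrowest of the 9 genes. Ahsa2 (ENSMUSG00000020288, chromosome 11, 23487882 to 23498030, minus strand), a relative of the HSP90 ATPase activator Ahsa1, was at 28.3, 228 and 82.5 with vehicle and 38.8, 54.3 and 51.0 with PCN. Ahsa2 is uncertain, because 50.2% of its exon bases lie under other genes, among them Usp34 on the other strand.

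Bag3 (ENSMUSG00000030847, chromosome 7, 128523616 to 128546981, plus strand) encodes the co-chaperone that steers HSP70 clients to autophagy. Its scaled CPM was 49.4, 400.3 and 128 in HFD Vehicle 23, 50 and 55, and 47.0, 64.6 and 65.7 in HFD PCN 5, 11 and 27. Bag3 was the only one of the 9 genes in which a PCN library, HFD PCN 5, lay below HFD Vehicle 23.

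**Figure D1:**
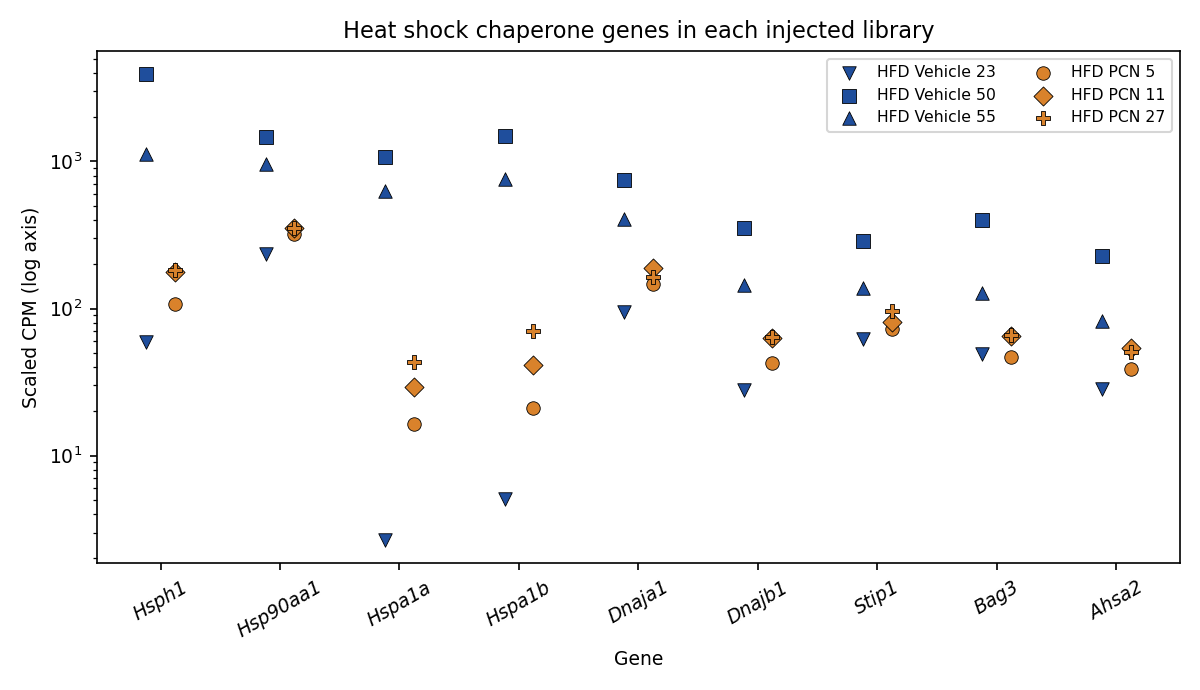
Scaled CPM (log axis) of the 9 heat shock chaperones in each injected library, with 1 point per library, vehicle in blue and PCN in orange. In each gene HFD Vehicle 50 and HFD Vehicle 55 are the highest points, and the PCN points lie above HFD Vehicle 23 in all genes but Bag3, where HFD PCN 5 (47.0) lies below it (49.4).

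The libraries of HFD PCN and HFD Vehicle thus overlapped in 9 of 9 genes, where 6.12% of the 16563 genes tested did not overlap. In 8 of the 9 genes HFD Vehicle 23 lay below every PCN library and these below HFD Vehicle 55 and 50, an order that 2.5% of 11614 genes with a mean of at least 5 CPM had. HFD Vehicle 50 and 55 were both at least 2-fold above HFD Vehicle 23 in 9 of 9 genes, against 0.56% of the 11614. Both patterns were defined after the values had been seen and describe these libraries. Summed over the 9 genes, scaled CPM came to 565, 9961 and 4371 in HFD Vehicle 23, 50 and 55 and to 815, 1050 and 1087 in HFD PCN 5, 11 and 27. As a share of all counts the 9 genes took 0.0570% in HFD Vehicle 23, 0.945% in HFD Vehicle 50 and 0.427% in HFD Vehicle 55, against 0.0834% to 0.111% with PCN.

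The genes differed in how wide that range was. From the lowest to the highest vehicle library the fold was 402 for Hspa1a, 292 for Hspa1b and 65.8 for Hsph1, the 2nd, 3rd and 10th widest of the 11614 genes. It was 12.7 for Dnajb1, and between 4.64 (Stip1, the 853rd widest) and 8.10 (Bag3) for the other 5. Over the PCN libraries the highest level was 1.09-fold (Hsp90aa1) to 3.33-fold (Hspa1b) above the lowest. The range did not rest on HFD Vehicle 50 alone: HFD Vehicle 55 stood above HFD Vehicle 23 by 236-fold for Hspa1a, 149-fold for Hspa1b, 18.8-fold for Hsph1, 4.12-fold for Hsp90aa1 and 2.21-fold for Stip1. It stood above the highest PCN library by 14.6-fold for Hspa1a and by 1.43-fold for Stip1.

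**Figure D2:**
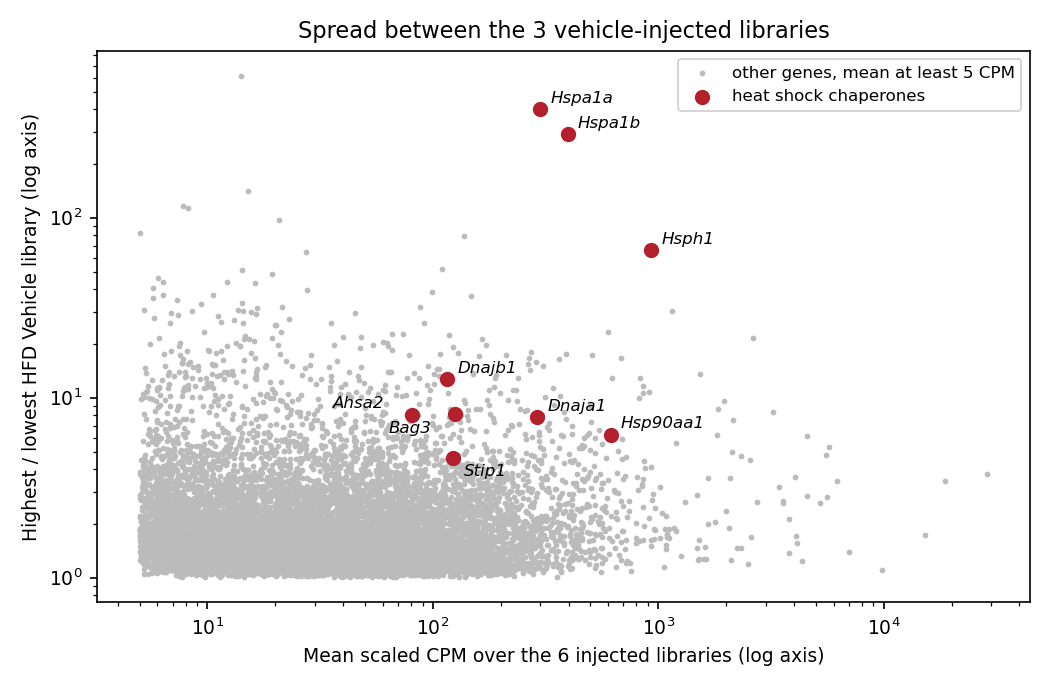
Highest over lowest HFD Vehicle library (log axis) against the mean scaled CPM of the 6 injected libraries (log axis), 1 point per gene for 11614 genes, with the 9 heat shock chaperones in red. Hspa1a (402-fold), Hspa1b (292-fold) and Hsph1 (65.8-fold) lie above most genes of their level, and Stip1 (4.64-fold) lies lowest of the 9.

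HFD Vehicle 50 also differed from its group in cell markers and RNA composition. The summed level of 7 macrophage markers, all at 1 CPM or more in each library, was 725 CPM in HFD Vehicle 50 against 5071 in HFD Vehicle 23 and 5518 in HFD Vehicle 55, and 2426 to 5573 CPM in the PCN libraries. That of 8 adipocyte markers ran from 6412 to 13374 CPM with vehicle and from 7680 to 15423 CPM with PCN, and that of 6 endothelial markers from 570.2 to 1508 CPM and from 630.3 to 1061 CPM. Mitochondrial ribosomal RNA took 7.49% of the counts in HFD Vehicle 50 and 2.01% to 2.54% in the other 5 libraries. HFD Vehicle 55, with the second highest level of all 9 genes, was close to HFD Vehicle 23, with the lowest level of 8, in macrophage markers and in mitochondrial ribosomal RNA (2.09% and 2.54%). They differed in summed adipocyte markers (6412 and 9262 CPM), mesothelial markers (11.6 and 26.0 CPM), mast cell markers (60.6 and 137 CPM) and red blood cell markers (292 and 103 CPM). The part of cell mix and RNA composition in the levels of HFD Vehicle 50 and 55 was not tested.

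**Figure D3:**
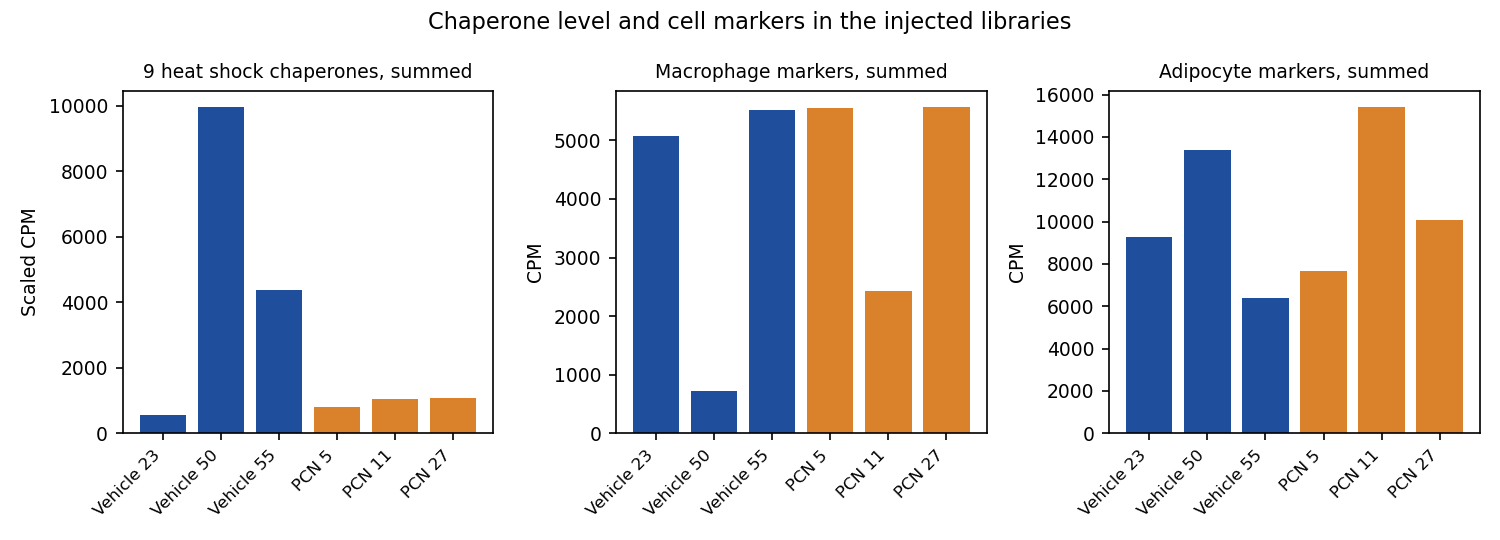
Summed scaled CPM of the 9 heat shock chaperones (left), and summed CPM of 7 macrophage markers (middle) and 8 adipocyte markers (right), 1 bar per injected library, vehicle in blue and PCN in orange. HFD Vehicle 50 is highest in chaperones (9961) and lowest in macrophage markers (725), while HFD Vehicle 55 is high in both (4371 and 5518).

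Within a library, levels can be set against each other per kilobase, here of all exons of the gene. In HFD Vehicle 23 and in the 3 PCN libraries Hsp90aa1 was the highest of the 9 genes by scaled CPM per kilobase, at 59.6 in HFD Vehicle 23 and 81.8 to 89.2 with PCN, followed by Stip1, and both ranks were the same per kilobase of the longest transcript. In these same libraries Hspa1a stood at 0.901 and at 5.56 to 14.5, last or second to last. In HFD Vehicle 50 Hsph1 led with 540.4 per kilobase, ahead of Hspa1b (527.9) and Hsp90aa1 (371.8), and it also led per kilobase of the longest transcript (824.2). In HFD Vehicle 55 the leader depended on the length used: Hspa1b (269.9) was ahead of Hsp90aa1 (245.3) by all exons, and Hsp90aa1 (293.9) ahead of Hspa1b (269.9) by the longest transcript. Hspa1a and Hspa1b together took 1.37% of the counts of the 9 genes in HFD Vehicle 23, 4.62% to 10.4% with PCN, 25.6% in HFD Vehicle 50 and 31.7% in HFD Vehicle 55. The composition of the set thus differed between HFD Vehicle 50 and 55 and the other libraries. Between HFD Vehicle 50 and 55 the share of the pair did not follow the level of the set, as it was larger in HFD Vehicle 55.

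The 9 genes followed each other across libraries. Pearson's r of log2 CPM over the 6 libraries lay between 0.882 (Bag3 with Hspa1a) and 0.998 (Hspa1a with Hspa1b) in the 36 pairs. Without HFD Vehicle 50 and 55 the median r was 0.957 and the lowest 0.652 over 4 libraries. The points share their libraries, and the genes were chosen for a common pattern, so these are descriptions.

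The comparison of HFD PCN with HFD Vehicle asked what PCN treatment changed in obese mice, with the solvent of the PCN injection not given in the labels. None of the 9 genes passed (edgeR adjusted p = 0.99986 for each). Of all 16563 genes 0 passed (0% called), 281 (1.7%) had an unadjusted p under 0.05 (4 of the 9 chaperones among them), DESeq2 called 2 and limma-voom 0. The 9 were chosen by their counts in these libraries, and the near copies Hspa1a and Hspa1b are both among the 4. The count of 4 is therefore a description. The estimates were all below 0, with the mean of the vehicle group carried by its 2 high libraries and an SD of the same order as that mean. Hsph1 was at 156 ± 42.3 scaled CPM with PCN and 1703 ± 1998 with vehicle (SD, n = 3 each), a log2 fold change of -3.45 with a standard error (SE) of 1.26. For Hspa1a the values were 29.7 ± 13.3 and 569.5 ± 538.9 scaled CPM (log2 fold change -4.26, SE 1.63), and for Hspa1b 44.3 ± 24.7 and 747 ± 737 (log2 fold change -4.08, SE 1.59). The other 6 genes had log2 fold changes between -1.70 (Bag3, SE 0.70) and -0.97 (Stip1, SE 0.52). The median of the 9 was -1.63, and that of all genes tested was -0.000179. In the authors' deposited table the log2 fold changes were smaller, at -0.76 for Hsph1 and -0.38 for Hspa1a and Hspa1b, and the adjusted p was 1 for all 9 genes. Their SE were smaller too, at 0.27, 0.20 and 0.21. DESeq2 run here on the same counts gave -3.5 for Hsph1, -4.3 for Hspa1a and -4.1 for Hspa1b. The deposited values are therefore not comparable in size with those above.

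How far the estimates lay from 0 depended on which vehicle library was in the group. Without HFD Vehicle 50 the log2 fold change was -1.93 for Hsph1, -3.43 for Hspa1a, -3.12 for Hspa1b, -0.82 for Hsp90aa1 and between -0.61 (Dnajb1) and -0.21 (Ahsa2) for the other 5. Without HFD Vehicle 23, the low library, it was -4.84 for Hspa1a, -4.00 for Hsph1 and -1.35 for Stip1. By limma-voom the estimates were smaller, at -2.33 for Hsph1, -2.46 for Hspa1a and -2.51 for Hspa1b, and at -0.86, -0.55 and -0.70 without HFD Vehicle 50 as well. All 9 genes kept their direction and none passed in the 13 other settings run for each, with adjusted p between 0.6603 and 1. The smallest of these estimates was a log2 fold change of only -0.026, so the kept direction does not mean a kept size.

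**Figure D4:**
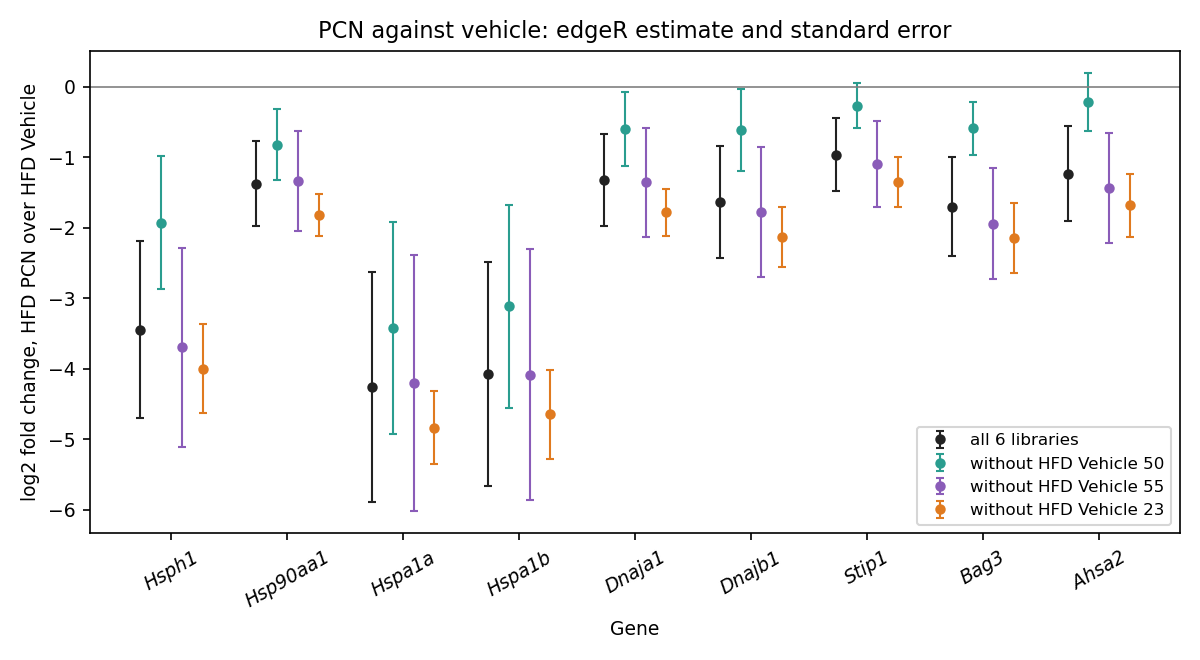
log2 fold change of HFD PCN over HFD Vehicle with its standard error from edgeR for each of the 9 genes, with all 6 libraries (black) and with 1 vehicle library left out (colours). Estimates are nearest to 0 without HFD Vehicle 50 (Ahsa2 at -0.21) and farthest from it without HFD Vehicle 23 (Hspa1a at -4.84).

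Other genes of the chaperone system were described from 10 lists with 89 genes: HSP70 and HSP90 relatives and partners, J-domain proteins, small heat shock proteins, the TRiC chaperonin, chaperones of mitochondria and endoplasmic reticulum, heat shock factors and immediate early genes. With PCN against vehicle 0 of 87 tested list genes passed (edgeR), like 0 of all 16563 genes tested. The groups overlapped in 85 of the 87, and of the 16563 genes 6.12% did not overlap. Hspa1l, the testis-type HSP70 gene next to Hspa1a, was followed in the injected groups only and stood at 0.689, 5.80 and 2.59 scaled CPM in HFD Vehicle 23, 50 and 55, against 0.902, 0.496 and 0.524 in HFD PCN 5, 11 and 27. It is uncertain, as 71.9% of its exon bases are overlapped by Gm10501. The J-domain gene Dnaja4, overlapped over 44.1% by Wdr61, stood at 10.01, 189 and 32.1 with vehicle and at 9.65, 25.0 and 20.0 with PCN. Both had their highest and second highest level in HFD Vehicle 50 and 55, as the 9 genes did.

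Other chaperones were listed in both tables and could be followed through all 12 libraries, scaled over shared genes. Hspb1, a small heat shock protein that binds unfolded proteins without ATP, was at 37.7, 650 and 176 scaled CPM in HFD Vehicle 23, 50 and 55, while HFD PCN 5, 11 and 27 had 58.0, 116 and 181 and the HFD libraries 29.1 to 44.8. Among the Chow libraries 8, 17 and 19 it was at 93.2, 599 and 40.7, so Chow 17 stood near HFD Vehicle 50. Hspd1 (HSP60), which folds proteins in mitochondria, was at 145, 776 and 312 with vehicle, 149.7 to 185 with PCN, 149 to 189 in HFD and 155, 795 and 112 in Chow 8, 17 and 19. Its partner Hspe1 (HSP10) was at 37.9, 198 and 110 with vehicle and at 30.8, 245 and 17.9 in Chow. The HSP90 co-chaperones Chordc1 and Fkbp4 reached 208 and 241 scaled CPM in HFD Vehicle 50 and 270 and 195 in Chow 17, against 45.3 and 47.5 in HFD Vehicle 23.

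Of the 79 list genes with a mean of at least 5 CPM, 7 were at least 2-fold higher in both HFD Vehicle 50 and 55 than in HFD Vehicle 23: Hspb1, Hspa4l, Chordc1, Fkbp4, Hspd1, Hspe1 and the collagen chaperone Serpinh1. This pattern was seen in 0.425% of the 11522 such genes shared by the tables. A level in Chow 17 at least 2-fold above Chow 8 and Chow 19 was found in 14 of the 79 list genes and in 0.877% of the 11522. All 7 list genes of the first pattern had the second, which adds Hspa8, Hsp90ab1, Ahsa1, Ptges3, Hspb8, Cct7 and Jun. Both patterns together were found in 27 genes (0.234%), these 7 among them. Among list genes shared by the tables, none of 9 J-domain genes, 7 exchange factors and partners or 3 heat shock factors had either. Some came near the Chow 17 threshold. In Chow 8, 17 and 19 Dnajb2 was at 27.5, 69.1 and 35.5 scaled CPM and Dnajb4 at 122.6, 236.7 and 122.2. Dnaja1, Dnajb1, Bag3 and Dnaja4, which were followed in the injected groups only, did have the first pattern. All of these but Dnaja4 were chosen by their counts there. The thresholds were set after seeing the values. Chow 17 lay between its 2 fellow libraries in summed macrophage markers (623 CPM, against 1164 and 311) and adipocyte markers (18287 CPM, against 20237 and 11716) and in mitochondrial ribosomal RNA (9.67%, against 6.05% and 28.7%). It was below both in mast cell (18.3 CPM, against 33.6 and 20.2), red blood cell (231, against 675 and 259) and B cell markers (1.64, against 4.94 and 1.97). In adipose progenitor markers it was above both (1496 CPM, against 1488 and 693). The part of cell mix and RNA composition in the levels of Chow 17 was not tested.

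**Figure D5:**
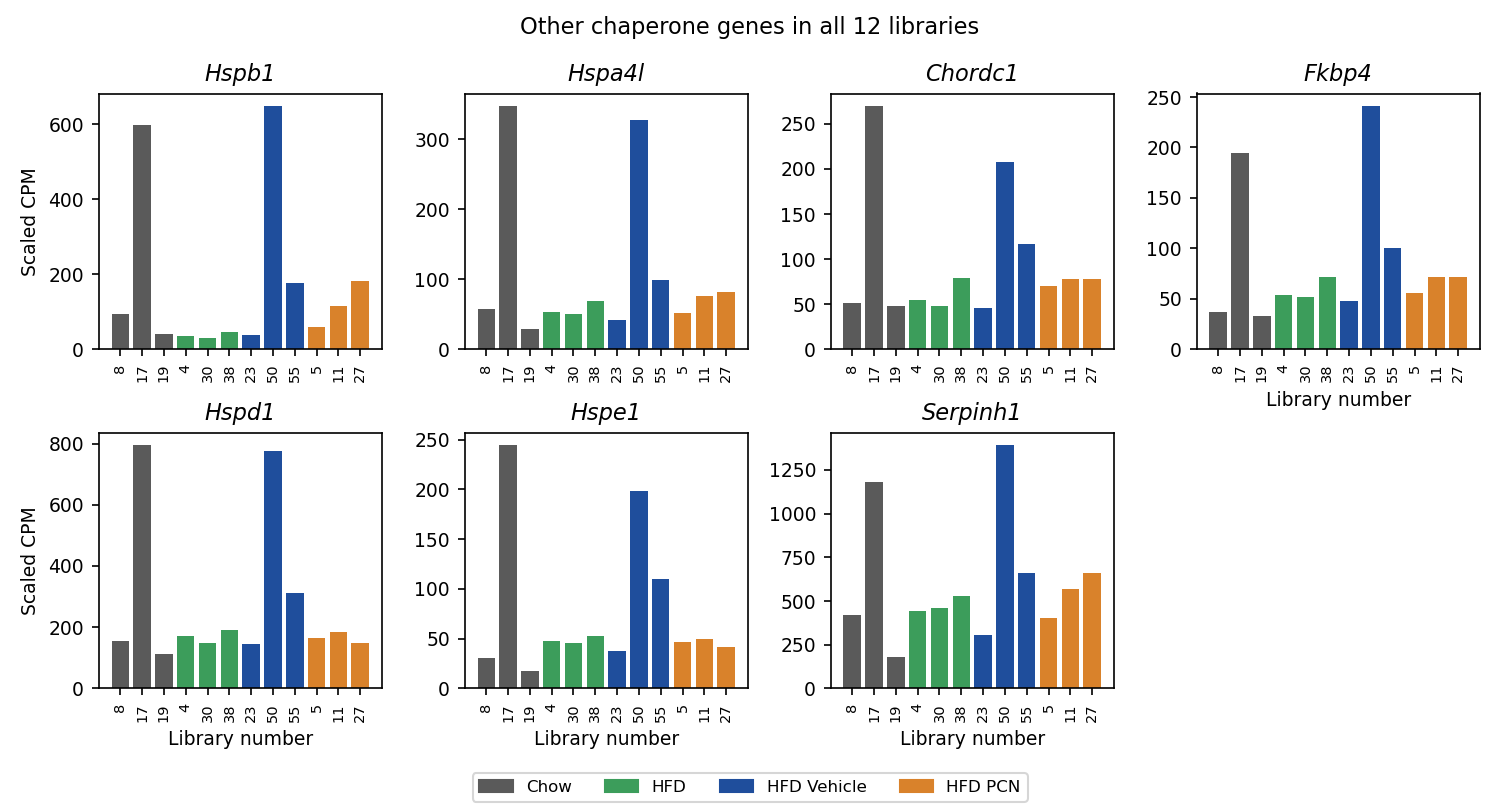
Scaled CPM of 7 chaperone genes listed in both tables, 1 bar per library, numbered as in the labels and coloured by group. The genes were picked for having both library patterns, so Chow 17 is the highest Chow library in every panel by that choice. HFD Vehicle 50 is the highest HFD Vehicle library in every panel, as for Hspb1 (650, with 599 in Chow 17).

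Set against the uninjected HFD group, HFD Vehicle had higher means of Hspb1, Hspe1 and Hspd1, carried by 2 of its libraries. These genes had been singled out above for high levels in the same 2 libraries. A raised HFD Vehicle mean is therefore in part a result of that choice, and the values are a description. Hspb1 was at 301 ± 339 scaled CPM in HFD Vehicle and 37.3 ± 8.08 in HFD (SD, n = 3 each; log2 fold change 3.01, SE 0.96, edgeR adjusted p = 0.485). Hspe1 gave a log2 fold change of 1.26 (SE 0.55) and Hspd1 one of 1.31 (SE 0.58), and neither passed (edgeR adjusted p = 0.485 for each). None of the 85 list genes tested passed, and of all 16781 genes 0 passed (0% called), with 1639 at an unadjusted p under 0.05 (9.77%), 107 called by DESeq2 and 0 by limma-voom. Over the 85 list genes the median log2 fold change was 0.056, and over all genes tested it was 0.0039. Without HFD Vehicle 50 edgeR called 172 genes. In HFD Vehicle 23 the levels of Hspb1 (37.7), Hspd1 (145) and Hspe1 (37.9) were within or below the range of the HFD libraries (29.1 to 44.8, 149 to 189 and 45.4 to 53.2). This comparison shares the HFD Vehicle libraries with that of PCN and joins counts that were deposited separately.

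In HFD against Chow, where 59.8% of 16216 genes passed (29.8% higher and 30% lower), 28 of 85 list genes rose, 19 fell and 38 did not pass (edgeR). The median log2 fold change was 0.0068 in the lists and -0.0307 over all genes. Chaperones of the endoplasmic reticulum rose in 7 of 9 cases, with Sdf2l1, a stress-induced partner of the HSP70 of that compartment, at 38.5 ± 9.80 scaled CPM in HFD and 6.33 ± 1.95 in Chow (log2 fold change 2.57, SE 0.26, edgeR adjusted p = 8.69e-05). Of 6 small heat shock proteins 3 fell, with log2 fold changes of -2.31 for Hspb7, -2.15 for Hspb8 and -2.80 for Hspb1 (edgeR adjusted p = 0.0226 for Hspb1). Summed macrophage markers were at 6118 to 6753 CPM in HFD and 311 to 1164 CPM in Chow, adipocyte markers at 7440 to 9088 and 11716 to 20237 CPM, and mitochondrial ribosomal RNA at 1.40% to 1.79% and 6.05% to 28.7%, and their part in these list counts was not tested. The fall of Hspb1 no longer passed without Chow 17, at -0.91 (edgeR adjusted p = 0.0506). Hspd1, at 159 ± 18.6 in HFD and 343 ± 374 in Chow, did not pass (log2 fold change -1.11, edgeR adjusted p = 0.173), and its estimate turned to 0.32 without Chow 17.

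Hsf1, the gene of the factor that drives the response, was at 23.2, 40.8 and 27.4 scaled CPM in HFD Vehicle 23, 50 and 55, at 22.8 to 31.3 with PCN and at 21.4 to 23.3 in HFD. In Chow 8, 17 and 19 it was at 28.1, 39.4 and 47.0, so its highest Chow library was not Chow 17, and it was lower in HFD than in Chow (log2 fold change -0.82, with an SE of 0.18 and an edgeR adjusted p of 0.00516). PCN against vehicle gave -0.12 (SE 0.26, edgeR adjusted p = 0.99986), which turned to 0.14 without HFD Vehicle 50 and to 0.015 without HFD PCN 5. HSF1 is known to be controlled largely at the protein level, which these counts do not measure.

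The genes most like the mean of the 9 across the injected libraries were ranked by Pearson's r of log2 CPM over 6 libraries among 11605 others. The first 10 had r between 0.983 and 0.995: Atat1, Hic2, Ttll3, Prdm15, Bahd1, Hsp90ab1, Gm48565, Cacybp, Dpf2 and Gm42559. Hsp90ab1, the constitutive HSP90, was at 581, 1694 and 1126 scaled CPM in HFD Vehicle 23, 50 and 55, against 719, 793 and 752 in HFD PCN 5, 11 and 27. Cacybp was at 38.9, 115 and 78.4 with vehicle and at 50.8 to 53.0 with PCN, and is 1 of the 27 genes with both library patterns. Gm48565, a predicted gene on chromosome 9 (40820969 to 40822673), was at 0.122, 74.6 and 7.12 with vehicle and 0.601, 0.826 and 0.932 with PCN. Its 614-fold range over the vehicle libraries rests on a value near the floor in HFD Vehicle 23, where Hspa1a had 66 counts at 2.67 scaled CPM. The gene met the mean of 5 CPM mainly through HFD Vehicle 50. Gm48565 starts 10881 bases beyond the end of Hspa8, the constitutive HSP70 gene (40800984 to 40810087). In the other 7 genes HFD Vehicle 50 stood 1.45-fold (Atat1) to 3.01-fold (Ttll3) above HFD Vehicle 23, so genes with a like r differed in the size of the difference.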

How the data were processed

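The deposited counts are whole numbers of reads per gene, made by the authors with HISAT2, HTSeq and DESeq2 on GRCm38 (mm10), per the submitters' processing notes, which give no versions or order. The authors' deposited tables, 1 for each pair of groups with 6 libraries, also hold log2 fold changes, p-values and other values of their own. No strand setting was found in the labels, headers or processing notes. The 9 genes, the lists, the tests and the alternatives were chosen with earlier results of these data known.

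The test was the quasi-likelihood F test in edgeR 4.0.16 under R 4.3.3 (TMM scaling, default expression filter, Benjamini-Hochberg adjustment over all genes tested, threshold 0.05), each comparison on its own 6 libraries, after a test on simulated data. HFD Vehicle against HFD used the 28008 genes in both tables, and the same genes gave the levels over 12 libraries. SE is the size of the log2 fold change over the square root of F. Likeness was computed on log2 CPM (prior count 2) of genes with a mean of at least 5 CPM. Marker sums use plain CPM. Named genes were the 9 and Hsf1, up to 3 genes per list and comparison with the smallest p, and the 10 most alike; genes with a library pattern were named after their values were seen. Of 32772 gene IDs 32760 were in GENCODE M21, and 98.23% of those had the same start and end; a gene is given as uncertain where another gene covers over 10% of its exon bases. Alternatives were DESeq2 1.42.0, limma-voom (limma 3.58.1), DESeq2 size factors in edgeR, no filter, 1 CPM in 3 libraries, each library left out in turn, all 12 libraries in 1 fit, plain library totals, and the longest transcript for levels per kilobase. DESeq2 and limma-voom without HFD Vehicle 50, DESeq2 without Chow 17 and plain totals for the library patterns were added after seeing the data. A list fixed with the others is not reported here.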

Additional observations from a re-analysis of the deposited data

How the results depend on the processing

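The 9 chaperones kept direction and side of the threshold in all 117 alternative values. They were chosen by their counts and lay far from the threshold (edgeR adjusted p = 0.99986), so this says little about robustness. Their levels moved by less than 1 SD with plain library totals, a wide margin where the vehicle SD was near its mean. Levels per kilobase moved by more than 1 SD in 4 of 18 values with the longest transcript. Of 415 values of other named genes 397 kept direction and side, 7 lost the threshold, 1 gained it and 10 turned. For PCN against vehicle 2 genes were called by DESeq2, 44 by DESeq2 without HFD Vehicle 50 (40 higher), and 0 to 0 by edgeR with 1 library left out. For HFD Vehicle against HFD DESeq2 called 107 genes, leaving out 1 library gave 0 to 172, and without HFD Vehicle 50 DESeq2 called 724 and limma-voom 158. HFD against Chow had 7953 to 10889 genes with 1 library left out. Without HFD Vehicle 50, PCN against vehicle turned for Hspb1 to 0.15 with edgeR, 0.15 with DESeq2 and 0.39 with limma-voom, for Hsf1 to 0.14, 0.15 and 0.13, and for Hspa4l to 0.083 with limma-voom. Without HFD PCN 5 Hsf1 turned to 0.015; with 1 library left out the edgeR values ran from -1.79 to 0.15 for Hspb1 and from -0.27 to 0.14 for Hsf1. In HFD against Chow, Hspd1 turned without Chow 17 to 0.32 with edgeR and 0.33 with DESeq2 (-1.51 to 0.32 over the libraries left out). The fall of Hspb1 missed the threshold with limma-voom (adjusted p = 0.0727), without each HFD library (edgeR adjusted p = 0.0569 to 0.0725) and in the fit of 12 libraries (edgeR adjusted p = 0.052). The cause was not tested. The 9 genes have no value in that fit. No paired analysis was possible because each library has its own number and no number is shared between groups. The count of 7 list genes high in HFD Vehicle 50 and 55, and that of 14 high in Chow 17, were the same with plain totals. With 3 libraries a group and a vehicle SD near its mean, the precision of the estimates for the 9 genes is limited.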
